A study of Mus musculus with 24 samples.

Results

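Claudins are the membrane proteins that form the strands of tight junctions, the seals between neighbouring epithelial cells. Of the claudin genes of the mouse kidney, 7 that mark the tubule and its neighbouring epithelia were followed here: Cldn1, Cldn2, Cldn3, Cldn4, Cldn7, Cldn8 and Cldn10. They were taken by gene symbol from a table of 40750 genes, and each symbol stands on 1 row. The table holds 34 rows named as claudins, so that 27 others were not among them.

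The study followed the repair of the mouse kidney after ischemia. Male mice of mixed background, 8 to 10 weeks old, carried 1 copy of Kim1-GCE, a tamoxifen-activated Cre placed under Kim1 (Havcr1), and 1 copy of EGFPL10a, a ribosomal protein with a green fluorescent tag. All of them, sham mice included, received tamoxifen 6 hours before and 24 hours after surgery. Day 2, day 7 and day 14 mice had both renal pedicles clamped for 20 minutes, and sham mice had the same operation without clamping. Beads coated with an antibody against GFP drew tagged ribosomes with their RNA from kidney homogenate, which gave bound RNA, and what the beads left gave unbound RNA, which stands for the total kidney. With 3 mice at each time, 24 libraries form 8 groups, named below by time and fraction. Kim1 drives the Cre, so the tag depends on cells that switched on Kim1 around surgery, and in sham bound RNA Havcr1 itself was at 1.49 to 5.61 RPKM (reads scaled to gene length and library depth).

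Each claudin gives the junction its own permeability. Cldn2 forms a pore for small cations and water in the leaky proximal tubule. Cldn10 is made in variants that favour anions in the proximal tubule or cations in the thick ascending limb. Cldn1 is a sealing claudin, best known in the kidney from the parietal cells of Bowman's capsule, while Cldn3, Cldn4, Cldn7 and Cldn8 belong mainly to the tighter distal tubule and collecting duct. In cultured mouse collecting duct cells, Cldn4 and Cldn8 work together as a path for chloride.

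Library depths, inferred from the values, were 15720000 to 24650000 reads. Behind the claudin values stood 2814 to 9728 reads per library for Cldn2, 1151 to 5336 for Cldn10, 249 to 1860 for Cldn7, 113 to 2882 for Cldn8, 113 to 1244 for Cldn3, and roughly 109 to 2352 for Cldn1 and 42 to 1017 for Cldn4. Markers of the proximal tubule were present throughout: the summed RPKM of 10 of them, none at 0 in any library, was 508 to 2379 in bound and 719 to 2636 in unbound libraries. Sham bound replicate 3 stood apart, with r of 0.929 and 0.93 across genes to the other sham bound libraries, which correlated at 0.972. Day 14 replicate 3 did so in both fractions (r of 0.897 and 0.893 in bound, 0.941 and 0.933 in unbound). A change is a log2 fold of RPKM + 0.5 fitted by limma over all libraries. Rises and falls are changes with a Benjamini-Hochberg adjusted p under 0.05 over 13721 tested genes. The 3 days are compared with the same sham libraries, and their changes are therefore not independent. The typical gene was shifted too: over the tested genes the median change from sham was 0.16, 0.13 and 0.18 (bound) and 0.20, 0.18 and 0.22 (unbound) at the 3 days, and each claudin's change stands against that shift.

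Pore claudins made up most of the summed RPKM of the 7 claudins in unbound RNA of sham kidneys, and in both fractions their mean share was lowest at day 2. Other claudins are outside this sum. RPKM is per length, so levels of different claudins can be set side by side. In unbound RNA, Cldn2 and Cldn10 together held 88.3% ± 0.779 of the summed RPKM of the 7 genes in sham kidneys, 67.7% ± 10.5 at day 2, 77.5% ± 3.94 at day 7 and 72.7% ± 13.7 at day 14 (SD, n = 3 each). The 3 day 2 libraries, at 74.5%, 55.7% and 73.0%, all lay below the sham libraries, at 87.8%, 89.2% and 87.8%. In bound RNA the share was 82.6%, 80.5% and 41.1% in sham, 56.9%, 50.1% and 37.4% at day 2, 65.5%, 71.9% and 67.0% at day 7, and 70.4%, 84.8% and 61.7% at day 14. Sham bound replicate 3, at 41.1%, overlapped the day 2 bound libraries. The summed RPKM had means of 147 ± 46.9, 205 ± 36.6, 217 ± 15.1 and 185 ± 30.7 in bound RNA and of 276 ± 17.8, 239 ± 22.4, 235 ± 18.3 and 217 ± 23.5 in unbound RNA, from sham to day 14. In whole kidney RNA, fewer cells of a type and less RNA in each cell cannot be told apart, and this holds for every level below. For bound RNA, a change in which cells gave the RNA and a change within tagged cells cannot be told apart either.

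**Figure D1:**
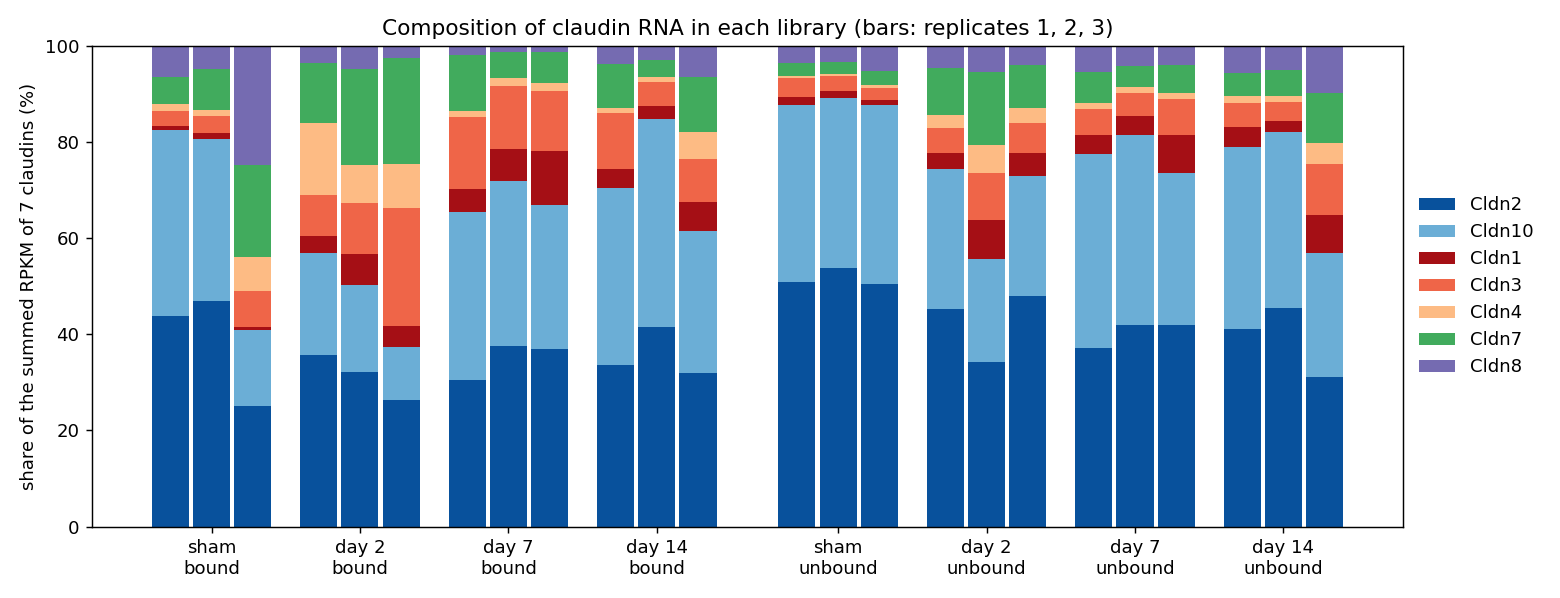
Share (%) of each claudin in the summed RPKM of the 7 genes, 1 bar per library, bound libraries at the left and unbound at the right, ordered by time from the left. Cldn2 and Cldn10, in blue, fill 87.8% to 89.2% of the sham unbound bars and 55.7% to 74.5% of the day 2 unbound bars, and sham bound replicate 3 has a large Cldn8 and Cldn7 share.

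Cldn1 rose at each day in bound RNA. It was at 1.03, 1.61 and 0.912 RPKM in sham bound libraries, 5.69, 14.4 and 9.86 at day 2, 10.6, 13.4 and 25.0 at day 7, and 8.37, 5.06 and 9.09 at day 14. Every injured bound library lay above every sham bound library. The rise was 2.57 at day 2 (SE 0.43, adjusted p = 0.000341), 3.25 at day 7 (SE 0.43, adjusted p = 6.33e-05) and 2.23 at day 14 (SE 0.43, adjusted p = 0.00335). In unbound RNA Cldn1 was at 4.45, 4.04 and 2.71 RPKM in sham, 8.59, 19.4 and 10.3 at day 2, 8.73, 8.77 and 20.3 at day 7, and 10.2, 4.72 and 15.9 at day 14, again with no overlap between sham and any later time. There the rise at day 2 was 1.59 (adjusted p = 0.0168), while day 7 (1.54, adjusted p = 0.0847) and day 14 (1.22, adjusted p = 0.13) did not pass. From day 2 to day 14 Cldn1 did not change past the threshold in bound RNA (log2 fold -0.34, adjusted p = 0.728). The order of its group means ran from day 7 bound at 16.3 RPKM down to sham unbound at 3.73 and sham bound at 1.18, and only the 2 sham groups were clear of their neighbours. Parietal cells of the glomerulus are a known site of Cldn1. Of 6 genes listed as parietal markers none was at 0, and not all of them, Wt1 for one, are particular to these cells. Their summed RPKM was 139.8, 208 and 77.8 in day 2 bound libraries, 107 to 144 at day 7 and 58.9 to 379 at day 14, against 95.9, 76.4 and 114 in sham bound libraries. In unbound RNA the sum was 62.5, 107 and 54.5 at day 2, 60.5, 50.3 and 93.2 at day 7 and 54.9, 38.0 and 102 at day 14, against 33.5, 28.4 and 30.9 in sham. Every unbound library after injury thus lay above sham, and at each of these days the library with the highest sum was also the one with the most Cldn1. These same unbound libraries also had the highest summed RPKM of 9 injured tubule markers at their day (982, 439 and 446 at day 2, 7 and 14). Of the 6 markers 1, 2 and 2 rose in bound RNA at day 2, 7 and 14, where 19.8%, 22.7% and 13.3% of all genes were called. In unbound RNA 2 rose and 1 fell at day 2, 1 rose at day 7 and none was called at day 14, against 14.8%, 1.09% and 1.23% of all genes. Aldh1a2, which encodes a retinoic acid enzyme, rose at all 3 days in bound RNA (3.03, 2.33 and 2.27, adjusted p = 0.00521, 0.0228 and 0.0391). Wt1 went the other way in bound RNA and did not pass (-0.64, -1.32 and -1.45, adjusted p = 0.375, 0.0533 and 0.0504). The median of the 6 in bound RNA was 0.19, 0.19 and 0.06. The part of these markers in the Cldn1 values was not tested. Without sham bound replicate 3 the bound rises of Cldn1 were 2.46, 3.14 and 2.12 and still passed. With the sham and day 14 bound groups fitted alone, the day 14 call was lost (adjusted p = 0.0536). In unbound RNA the day 2 call was lost without sham unbound replicate 3 (adjusted p = 0.0802) and without day 2 unbound replicate 2 (1.25, adjusted p = 0.121).

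**Figure D2:**
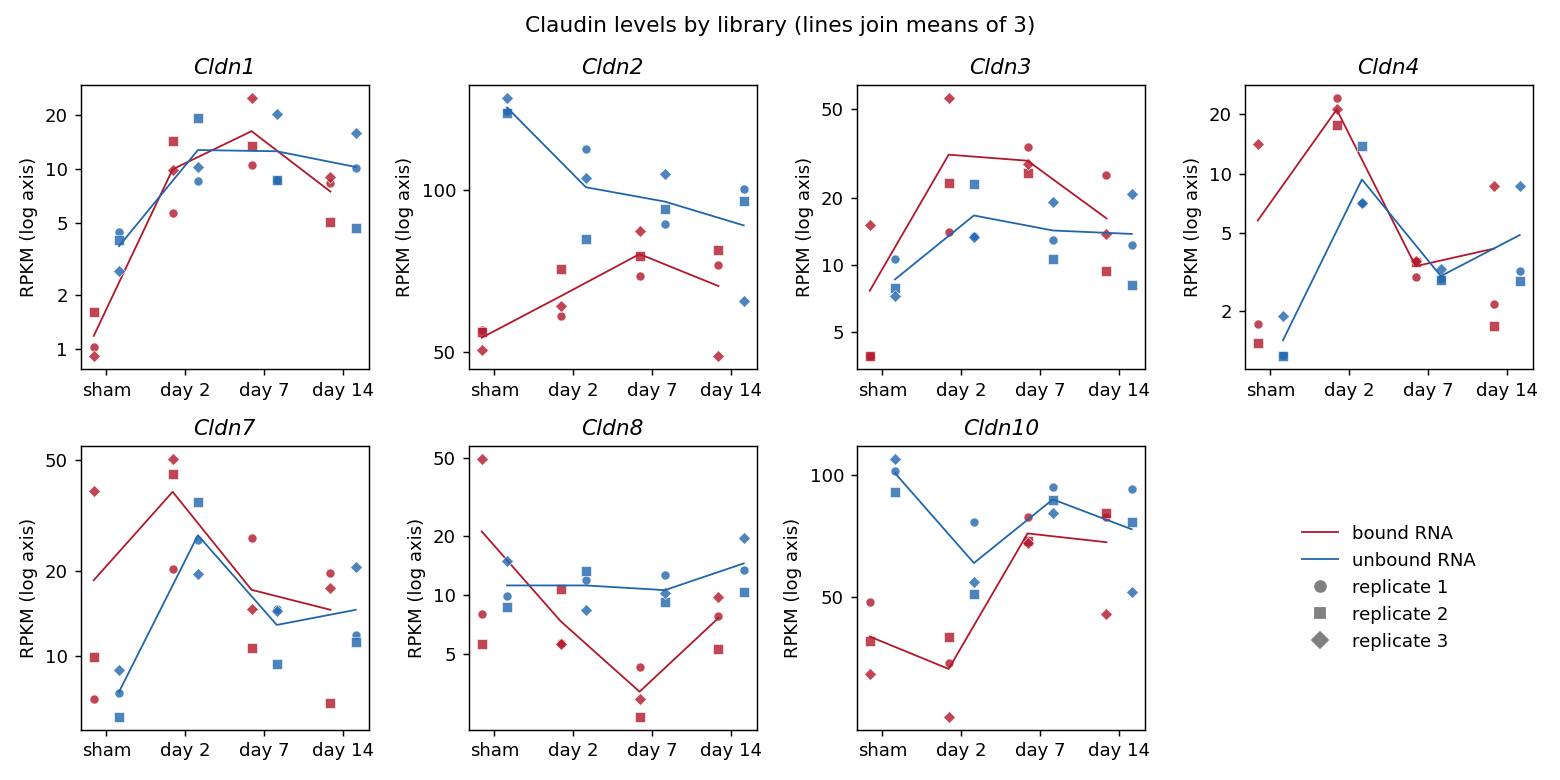
RPKM of each claudin (log axis) by time after surgery, with sham first. Each point is 1 library with its shape giving the replicate, bound RNA stands left of unbound RNA at each time, and lines join the means of 3. Cldn1 bound libraries are at 0.912 to 1.61 RPKM in sham and at 5.06 or more after injury, Cldn4 peaks at day 2, and sham bound replicate 3 is far above its group for Cldn3, Cldn4, Cldn7 and Cldn8.

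Cldn3 and Cldn4 rose at day 2 in bound RNA beside Cldn1. Markers of the injured tubule were high at the same time: the summed RPKM of 9 of them was 1472, 1189 and 1635 in day 2 bound libraries, 597 to 891 at day 7 and 244 to 702 at day 14, against 351 to 514 in sham bound libraries. In unbound RNA it was 598 to 982 at day 2, 266 to 439 at day 7 and 174 to 446 at day 14, against 78.4 to 117 in sham. Of the 9 markers 7 rose at day 2 in bound and 8 in unbound RNA, where 13.3% and 9.76% of all genes rose. Among those that rose was Krt20, a keratin gene of injured tubules (6.68 in bound and 5.84 in unbound RNA, adjusted p = 1.42e-07 and 8.5e-07). In bound RNA 4 rose and 1 fell at day 7 and again at day 14, where 22.7% and 13.3% of all genes were called. In unbound RNA 6 rose at day 7 and 4 at day 14, against 1.09% and 1.23% of all genes called. At day 14 against day 2 in bound RNA 6 of the 9 fell and 1 rose, where 3.4% of all genes fell and 3.24% rose. The part of these markers in the claudin values was not tested. Cldn3, a sealing claudin, was at 3.91, 3.93 and 15.2 RPKM in sham bound libraries, 14.1, 23.4 and 56.3 at day 2, 33.9, 26.0 and 28.3 at day 7, and 25.4, 9.38 and 13.8 at day 14. Day 7 bound libraries lay above all sham bound libraries, while 1 day 2 library was below sham bound replicate 3. Its rise was 2.01 at day 2 (SE 0.49, adjusted p = 0.00656) and 2.14 at day 7 (SE 0.49, adjusted p = 0.00426), and at day 14 it did not pass (1.19, adjusted p = 0.103). In unbound RNA Cldn3 was at 10.7, 7.93 and 7.28 RPKM in sham, 13.5, 23.1 and 13.4 at day 2, 13, 10.6 and 19.2 at day 7, and 12.3, 8.12 and 20.9 at day 14, and no day passed (0.88, 0.67 and 0.56; adjusted p = 0.229, 0.537 and 0.518), though day 2 did in a fit of the 2 groups alone (adjusted p = 0.0409). The day 2 bound call was lost without day 2 bound replicate 3 (1.47, adjusted p = 0.0561) and in a fit of the sham and day 2 bound groups alone (adjusted p = 0.132). Without sham bound replicate 3 the values were 2.61, 2.75 and 1.80, and day 14 passed (adjusted p = 0.0127).

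Cldn4, which in many epithelia limits the passage of sodium, rose at day 2 in both fractions and was not called at later times. It was at 24.3, 17.7 and 21.4 RPKM in day 2 bound libraries, all above the sham bound libraries at 1.71, 1.38 and 14.2. Day 7 bound libraries were at 2.99, 3.57 and 3.59 and day 14 at 2.17, 1.68 and 8.62. The rise at day 2 was 2.45 (SE 0.58, adjusted p = 0.0057), and day 7 (-0.03, adjusted p = 0.983) and day 14 (-0.07, adjusted p = 0.954) did not pass. Unbound RNA had 7.10, 13.8 and 7.12 RPKM at day 2, against 1.2, 1.18 and 1.88 in sham, with no overlap, a rise of 2.31 (SE 0.58, adjusted p = 0.0107). At day 7 the unbound libraries were at 2.91, 2.86 and 3.28 and at day 14 at 3.19, 2.83 and 8.61, above every sham unbound library, but neither time passed (0.89 and 1.34, adjusted p = 0.487 and 0.2). At day 14 against day 2 Cldn4 fell by 2.51 in bound RNA (SE 0.58, adjusted p = 0.00945). In a fit of the compared groups alone the day 2 bound call (adjusted p = 0.114) and the fall (adjusted p = 0.0895) were lost. The fall was also lost without day 14 bound replicate 1 (adjusted p = 0.0596) or 2 (adjusted p = 0.0697), and the unbound rise without day 2 unbound replicate 2 (adjusted p = 0.0731). Without sham bound replicate 3 the day 2 bound rise was 3.40 and the day 7 and day 14 values were 0.92 and 0.88, which did not pass.

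The 250 bases before the start of the genes that rose at day 2 in bound RNA, and of Cldn2, which did not, are shown to set their starts side by side. They are RefSeq sequence of GRCm38.p6, 5′ to 3′ on the strand of the gene, with capitals marking a match on either strand to 1 of 5 short motifs. The motifs were the AP-1 site TGANTCA, the E-box CAGGTG, the GC box GGGCGG, the Grainyhead site AACNGGTT and the TATA box TATAAA. Cldn4 lies at chr5:134946935-134947184 on the minus strand, Cldn1 at chr16:26371840-26372089 on the minus strand, Cldn3 at chr5:134985964-134986213 on the plus strand and Cldn2 at chrX:139800558-139800807 on the plus strand.
Cldn4: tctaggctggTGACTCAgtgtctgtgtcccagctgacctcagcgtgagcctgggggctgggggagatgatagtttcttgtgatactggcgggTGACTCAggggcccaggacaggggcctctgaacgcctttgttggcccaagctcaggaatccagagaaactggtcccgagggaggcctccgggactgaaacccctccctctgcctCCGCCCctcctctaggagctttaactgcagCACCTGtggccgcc
Cldn1: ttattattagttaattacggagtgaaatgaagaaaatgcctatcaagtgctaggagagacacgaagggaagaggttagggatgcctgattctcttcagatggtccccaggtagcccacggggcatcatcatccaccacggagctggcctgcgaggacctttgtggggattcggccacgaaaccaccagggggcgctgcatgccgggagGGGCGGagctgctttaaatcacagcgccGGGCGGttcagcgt
Cldn3: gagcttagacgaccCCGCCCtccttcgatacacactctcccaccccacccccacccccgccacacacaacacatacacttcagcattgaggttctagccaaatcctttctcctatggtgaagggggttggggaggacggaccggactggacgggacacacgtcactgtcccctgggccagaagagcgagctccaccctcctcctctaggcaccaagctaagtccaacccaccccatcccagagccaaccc
Cldn2: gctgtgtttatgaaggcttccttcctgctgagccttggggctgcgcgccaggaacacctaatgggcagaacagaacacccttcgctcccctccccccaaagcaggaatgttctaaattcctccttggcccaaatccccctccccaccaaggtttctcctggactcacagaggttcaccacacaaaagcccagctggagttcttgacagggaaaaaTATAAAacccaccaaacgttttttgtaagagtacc
Cldn4 holds 2 AP-1 matches, at -240 to -234 and -158 to -152 from the gene start, with 1 E-box and 1 GC box nearer the start. An AP-1 match stands in 6.75% of the 32851 promoter windows of the same length, an E-box in 17.2% and a GC box in 32.7%. Cldn1 holds 2 GC boxes at -42 to -37 and -14 to -9, and Cldn3 holds 1. In Cldn2 the match is a TATA box at -35 to -30, present in 12.4% of windows. None of the 4 holds the Grainyhead site, present in 1.79%. A match describes the letters of the window and is not a measured binding site. Of the 7 claudins 6 have a promoter in the RefSeq table, among them Cldn7 and Cldn10 with 2 starts each.

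Cldn7, a claudin of the lateral membrane and junctions of distal tubule and collecting duct, rose at day 2 in unbound RNA. In bound RNA it was at 20.4, 44.3 and 50.4 RPKM at day 2, against 7.05, 9.95 and 38.7 in sham, where sham bound replicate 3 overlapped the day 2 libraries. The change of 1.32 (SE 0.50, adjusted p = 0.0674) did not pass, but it did without sham bound replicate 3 (2.03, adjusted p = 0.00315) or without day 2 bound replicate 1 (1.71, adjusted p = 0.0208). In unbound RNA Cldn7 was at 25.9, 35.4 and 19.5 RPKM at day 2, against 7.36, 6.08 and 8.91 in sham. These groups did not overlap, and the gene rose by 1.76 (SE 0.50, adjusted p = 0.0213). The unbound call was lost without sham unbound replicate 1 (adjusted p = 0.0585) or 2 (adjusted p = 0.074), without day 2 unbound replicate 2 (adjusted p = 0.112) and with no filter on low values (adjusted p = 0.0524). At day 7 it was at 26.2, 10.7 and 14.7 RPKM in bound and 14.7, 9.33 and 14.5 in unbound RNA. At day 14 it was at 19.7, 6.82 and 17.4 RPKM in bound and 11.9, 11.2 and 20.7 in unbound RNA. None of these 4 changes passed (log2 folds -0.08 to 0.89, adjusted p = 0.312 to 0.938). The bound values of 0.19 at day 7 and -0.08 at day 14 were 0.90 and 0.64 without sham bound replicate 3 and did not pass either.

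Cldn8, a claudin of the distal nephron and collecting duct, was the one member that fell against sham in bound RNA. It was at 4.30, 2.40 and 2.95 RPKM in day 7 bound libraries, all below the sham bound libraries at 8.01, 5.65 and 49.6. The fall was -1.92 (SE 0.50, adjusted p = 0.00965). It was -0.99 without sham bound replicate 3 and still passed (adjusted p = 0.0324), and the call was lost in a fit of the 2 groups alone (adjusted p = 0.118). At day 2 the bound libraries were at 5.67, 10.7 and 5.66 RPKM and at day 14 at 7.80, 5.33 and 9.82. These changes did not pass (-0.87 and -0.80, adjusted p = 0.23 and 0.292), and without sham bound replicate 3 they were 0.06 and 0.13. In unbound RNA Cldn8 stayed between 8.42 and 19.5 RPKM in all 12 libraries, with log2 folds of 0.02, -0.04 and 0.35 (adjusted p = 0.987, 0.978 and 0.712).

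Markers of the collecting duct principal cell fell beside Cldn8 at day 7 and were highest in sham bound replicate 3. The summed RPKM of 10 markers was 213, 189 and 797 in day 2 bound, 239, 201 and 139.7 in day 7 bound and 321, 275 and 172 in day 14 bound libraries, against 264, 547 and 2105 in sham bound libraries. In unbound RNA the sum stayed between 129 and 199. Sham bound replicate 3 was also the highest bound library for the summed thin limb (549.7 RPKM), intercalated cell (245), thick ascending limb (782) and distal convoluted tubule markers (431). Its proximal tubule sum (990.4 RPKM) was the lowest of the sham bound libraries. Of 9 tested markers 8 fell in bound RNA at day 7, among them Aqp3, a water channel (-2.70, adjusted p = 0.00331), and Gata3, a transcription factor (-1.84, adjusted p = 0.00129). Avpr2 was the only listed principal cell marker at 0 in any library. Other distal markers fell too: 4 of 6 tested of the thick ascending limb, 3 of 7 of the distal convoluted tubule and 4 of 9 of the intercalated cell. None of these rose, and 7.55% of all genes fell. All these falls are measured against a sham group that holds replicate 3, and no values without it are given for the markers. The part of all these markers in the Cldn8, Cldn7, Cldn4 and Cldn3 values was not tested. Cldn8 was at 49.6 RPKM in the library with the highest sum (2105), but at 5.66 in the second highest, day 2 bound replicate 3 (797).

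**Figure D3:**
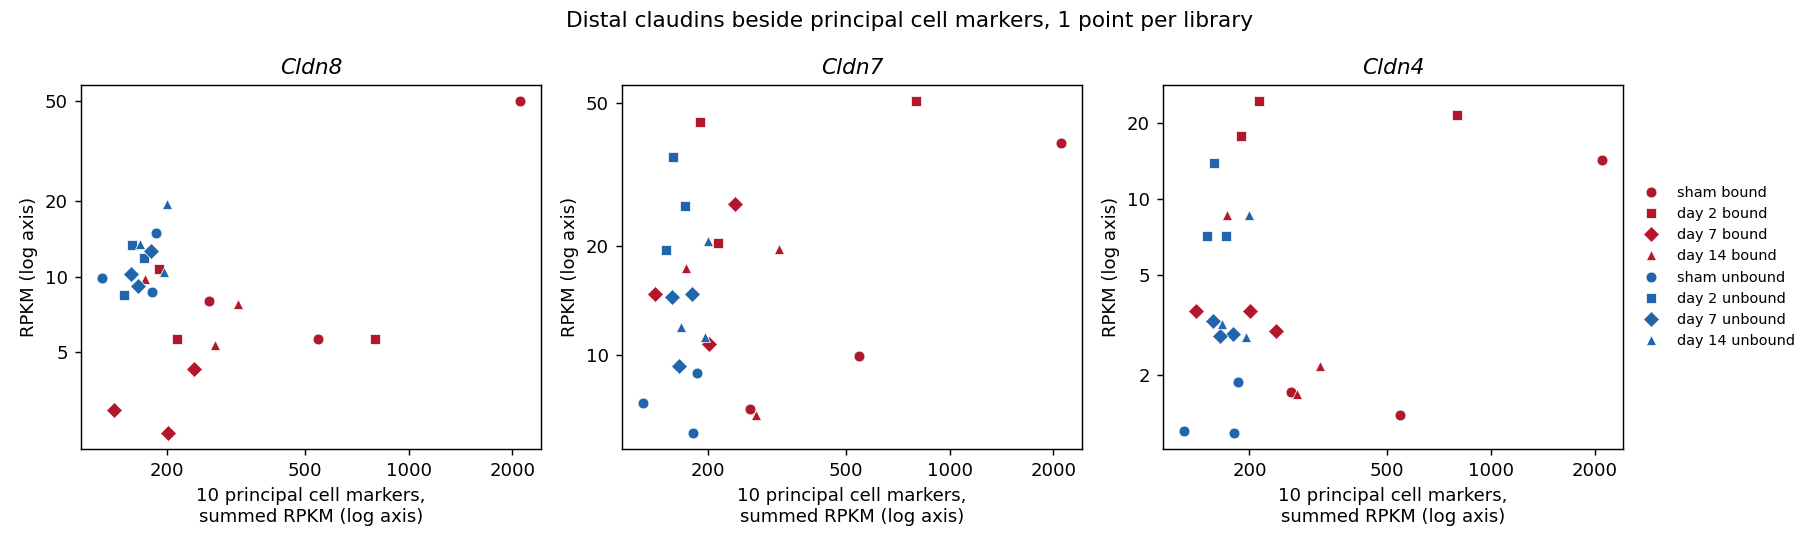
RPKM of Cldn8, Cldn7 and Cldn4 against the summed RPKM of 10 principal cell markers (both on log axes), 1 point per library, bound libraries in red and unbound in blue, with shapes for the times. Sham bound replicate 3 is alone at a marker sum of 2105 RPKM, and the day 2 bound points are high for Cldn4 (17.7 to 24.3 RPKM) at sums of 189 to 797.

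Cldn2 mostly stood above its sham level in bound RNA and below it in unbound RNA, with no change past the threshold. It was at 58.2, 71.3 and 60.7 RPKM in day 2 bound, 69.1, 75.2 and 83.6 in day 7 bound and 72.4, 77.1 and 49.1 in day 14 bound libraries, against 54.8, 54.3 and 50.3 in sham bound libraries. Day 2 and day 7 bound libraries lay above all of sham, and day 14 bound replicate 3 below them. None of the bound changes passed (0.25, 0.51 and 0.29, adjusted p = 0.426, 0.08 and 0.36). In unbound RNA Cldn2 was at 119, 80.9 and 105 RPKM at day 2, 86.3, 91.9 and 107 at day 7 and 100.3, 95.1 and 62.0 at day 14, all below the sham libraries at 140.0, 139 and 148. The unbound changes of -0.50, -0.59 and -0.76 did not pass (adjusted p = 0.104, 0.173 and 0.0664). In the order of its 8 group means the 4 unbound groups stood above the 4 bound groups, with sham unbound (142 RPKM) at the top and sham bound (53.1 RPKM) at the bottom, each clear of its neighbour.

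Cldn10 fell at day 2 in unbound RNA and rose at day 7 in bound RNA. In bound RNA it was at 34.4, 39.8 and 25.3 RPKM at day 2, 78.9, 68.5 and 67.8 at day 7 and 78.7, 80.5 and 45.4 at day 14, against 48.6, 39.0 and 32.3 in sham. Day 7 libraries lay above every sham bound library, a rise of 0.85 (SE 0.25, adjusted p = 0.018). Day 2 (-0.27, adjusted p = 0.48) and day 14 (0.74, adjusted p = 0.0528) did not pass, and day 14 did without day 14 bound replicate 3 (1.0, adjusted p = 0.00889). The day 7 call was lost after median-ratio rescaling of the libraries (0.66, adjusted p = 0.13) and without sham bound replicate 2 (adjusted p = 0.0511) or 3 (adjusted p = 0.0555) or day 7 bound replicate 1 (adjusted p = 0.0644). In unbound RNA Cldn10 was at 76.5, 50.9 and 54.5 RPKM at day 2, against 102, 90.8 and 109.7 in sham, and fell by 0.75 on the log2 scale (SE 0.25, adjusted p = 0.0467). This call was lost in 5 of 6 fits without 1 library, all but that without day 2 unbound replicate 1 (adjusted p up to 0.195), and with no filter on low values (adjusted p = 0.074). At day 7 unbound libraries had 93.5, 86.6 and 80.7 RPKM and at day 14 92.3, 76.4 and 51.4, and these changes did not pass (-0.21 and -0.49, adjusted p = 0.725 and 0.264). At day 14 against day 2 Cldn10 rose by 1.01 in bound RNA (SE 0.25, adjusted p = 0.0157). That call was lost after rescaling (adjusted p = 0.0519), in a fit of the 2 groups alone (adjusted p = 0.298), and without day 2 bound replicate 3 (adjusted p = 0.0632) or day 14 bound replicate 1 (adjusted p = 0.0942) or 2 (adjusted p = 0.0953). The Cldn10 row adds up all transcripts of the gene, so its anion and cation variants are not separated. At day 7, beside the bound rise of Cldn10, the summed RPKM of the 10 proximal tubule markers was 1091 to 1325 in bound libraries, against 990.4 to 1298 in sham bound libraries, and of the markers Lrp2, the gene of the endocytic receptor megalin, fell (-1.14, adjusted p = 0.0213) and none rose. At day 2 the sum was 719 to 1495 in day 2 unbound and 508 to 814 in day 2 bound libraries, against 2513 to 2636 in sham unbound and 990.4 to 1298 in sham bound libraries. Of the 10 markers 3 fell and none rose at day 2 in each fraction, where 19.8% of all genes were called in bound and 14.8% in unbound RNA. Among those that fell in both was the phosphate transporter gene Slc34a1 (-1.72 in bound and -2.09 in unbound RNA). The part of the 10 markers in the Cldn2 and Cldn10 values was not tested.

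Counted over the family, 3 of the 7 claudins rose and none fell at day 2 in bound RNA, where 19.8% of all tested genes were called (13.3% higher). At day 7, 3 rose and 1 fell, against 22.7% of all genes (15.2% higher and 7.55% lower). At day 14, 1 rose, against 13.3% (8.71% higher). Without sham bound replicate 3, 4 rose at day 2, Cldn1 and Cldn3 rose and Cldn8 fell at day 7, and Cldn1 and Cldn3 rose at day 14. In unbound RNA 3 rose and 1 fell at day 2, against 14.8% of all genes (9.76% higher and 5.04% lower), and none was called without day 2 unbound replicate 2. Counts of all genes also moved in fits without 1 library, as given further below. By limma no claudin was called at day 7, where 1.09% of genes were, or at day 14, where 1.23% were, although 2 and 3 claudins had an unadjusted p under 0.05. A fit of the 2 groups alone called 3 at day 7 (Cldn1, Cldn2 and Cldn4, adjusted p = 0.024, 0.0184 and 0.0225). That fit called 2042 of all genes, against 150 in the fit over all libraries. At day 14 against day 2, 1 claudin rose and 1 fell in bound RNA, against 6.64% of all genes (3.24% higher and 3.4% lower), and none in unbound RNA, against 4.95%, where none had an unadjusted p under 0.05 either. The median log2 fold of the 7 at the 3 days was 1.32, 0.51 and 0.29 for bound RNA and 0.88, 0.67 and 0.56 for unbound RNA.

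**Figure D4:**
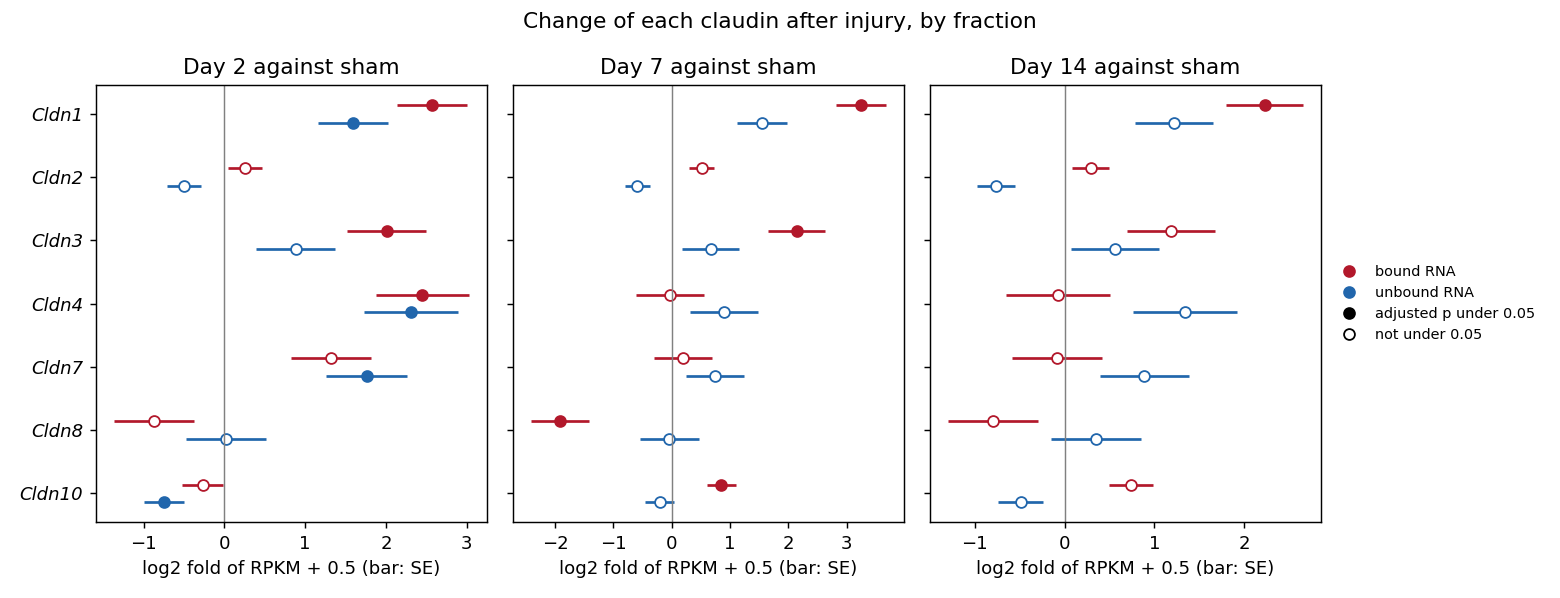
Log2 fold of RPKM + 0.5 against sham for each claudin (horizontal axis, bars are SE) at day 2, day 7 and day 14, with bound RNA in red above unbound RNA in blue. Filled points have an adjusted p under 0.05: at day 2 Cldn1 and Cldn4 are filled in both fractions, and at day 14 only Cldn1 in bound RNA is.

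In sham kidneys bound RNA was poorer in the pore claudins than unbound RNA. Cldn2 averaged 53.1 ± 2.44 RPKM in sham bound and 142 ± 4.96 RPKM in sham unbound libraries (SD, n = 3 each), a difference of -1.41 (SE 0.21, adjusted p = 8.72e-05). Cldn10 averaged 39.9 ± 8.17 RPKM in bound and 101 ± 9.50 RPKM in unbound libraries (-1.34, SE 0.25, adjusted p = 0.000658), and Cldn1 1.18 ± 0.370 and 3.73 ± 0.911 RPKM (-1.33, SE 0.43, adjusted p = 0.0263). These 3 of 7 were called where 27.6% of all genes were (12.9% lower), and for each the libraries of the fractions did not overlap. Of the proximal tubule markers 7 of 10 were also lower in bound RNA, and of the tested principal cell markers 6 of 9 were higher. The Cldn1 call was lost without sham bound replicate 1 (adjusted p = 0.0723) or 3 (adjusted p = 0.0678), without sham unbound replicate 1 (adjusted p = 0.0903) or 2 (adjusted p = 0.0757), and with no filter on low values (adjusted p = 0.0615). Bound and unbound libraries of the same number deviated together and were taken to come from 1 mouse, which the labels do not state. They were therefore also fitted with the mouse as a block. In that fit all 3 calls held and Cldn4 was called higher in bound RNA (1.06, adjusted p = 0.0385), with 39.3% of all genes called. The Cldn4 value was 0.27 (adjusted p = 0.487) without sham mouse 3.

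After injury, without the block, no claudin was called between bound and unbound RNA at day 2, day 7 or day 14, where 1.68%, 2.35% and 0.816% of all genes were, and 2, 2 and 0 claudins had an unadjusted p under 0.05. With the mouse as a block, 9.5%, 11.4% and 2.62% of genes were called. At day 2 these included Cldn2 (-0.66, adjusted p = 0.0283) and Cldn10 (-0.86, adjusted p = 0.0149), lower in bound RNA in each of the 3 mice. At day 7 they included Cldn8 (-1.60, SE 0.32, adjusted p = 0.00711), with 4.30, 2.40 and 2.95 RPKM in bound against 12.6, 9.18 and 10.2 RPKM in unbound RNA. No claudin was called at day 14. The Cldn2 call was lost without day 2 mouse 1 (adjusted p = 0.231) or 3 (adjusted p = 0.0669), the Cldn10 call without day 2 mouse 1 (adjusted p = 0.147), and the Cldn8 call without day 7 mouse 2 (adjusted p = 0.0654) or 3 (adjusted p = 0.061).

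Whether an injury change differed between the fractions was tested as an interaction, the change in bound RNA minus that in unbound RNA. Without the block no claudin was called at any day, where 0%, 0.146% and 0.197% of all genes were, and 1, 5 and 2 claudins had an unadjusted p under 0.05. With the mouse as a block, 0%, 5.26% and 6.28% of genes and 0, 4 and 3 claudins were called at day 2, 7 and 14. At day 7 the interaction was 1.71 for Cldn1 (adjusted p = 0.0189), 1.09 for Cldn2 (adjusted p = 0.0284), 1.06 for Cldn10 (adjusted p = 0.0392) and -1.88 for Cldn8 (adjusted p = 0.0353). At day 14 it was 1.01 for Cldn1 (adjusted p = 0.0428), 1.05 for Cldn2 (adjusted p = 0.0266) and 1.23 for Cldn10 (adjusted p = 0.0233). Each of these 7 calls was lost without 1 or another mouse, with directions kept: at day 7 Cldn10 without any 1 of the 6 mice (adjusted p = 0.0559 to 0.129), Cldn2 without any but sham mouse 3 (up to 0.104), and Cldn1 and Cldn8 without sham mouse 2 or any day 7 mouse (up to 0.0902 and 0.116). The Cldn8 value was -1.17 without sham mouse 3. At day 14 Cldn1 and Cldn2 were lost without sham mouse 1 or 2 or day 14 mouse 1 or 2 (up to 0.177 and 0.119), and Cldn10 without sham mouse 2 or day 14 mouse 1 or 2 (up to 0.115).

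Other parts of the tight junction were called after injury in a share no larger than that of all genes. Of 25 listed partners 23 were tested. In bound RNA 1 rose and 2 fell at day 2, 2 rose and 3 fell at day 7, and 3 fell at day 14. These are 13%, 21.7% and 13% of the list, against 19.8%, 22.7% and 13.3% of all genes. Cxadr, a junctional adhesion receptor, rose at day 2 in bound (1.09, adjusted p = 0.0079) and in unbound RNA (0.98, adjusted p = 0.0188). Mpp5, a polarity scaffold, fell at all 3 days in bound RNA (-0.79, -1.44 and -0.98, adjusted p = 0.00243, 1.39e-05 and 0.00153), as did Mpdz, a multi-PDZ scaffold that binds claudin tails (-1.2, -1.68 and -1.46). Marveld3 (0.81, adjusted p = 0.00844) and Igsf5 (1.17, adjusted p = 0.0219), membrane proteins of the junction, rose at day 7 in bound RNA. In unbound RNA the polarity kinase gene Prkci rose at day 2 (0.93, adjusted p = 0.0424), and none of the 23 was called at day 7 or day 14. The median of the list was 0.00, -0.31 and -0.21 in bound RNA. Between the fractions in sham kidneys 9 partners were higher and 1 was lower in bound RNA, 43.5% of the list against 27.6% of all genes. Cgnl1 (4.69, adjusted p = 4.03e-06) and Cgn (4.50, adjusted p = 0.000161), the cingulin genes, were at the top, opposite in direction to the pore claudins. Cgnl1 was also higher in bound than in unbound RNA after injury, by 3.41 at day 2, 3.44 at day 7 and 2.72 at day 14.

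Genes that act on claudins were followed as a list of 25, of which 24 were tested. In bound RNA 2 rose and 2 fell at day 2, 1 rose and 3 fell at day 7, and 1 rose and 2 fell at day 14, which is 16.7%, 16.7% and 12.5% of the list, below the 19.8%, 22.7% and 13.3% of all genes. Epha2, a receptor kinase that phosphorylates claudins (1.62, adjusted p = 0.0128), and St14, the protease matriptase (1.10, adjusted p = 0.0348), rose at day 2, and Spint2, an inhibitor of such proteases, rose at day 7 (1.49, adjusted p = 0.00292) and day 14 (1.15, adjusted p = 0.0226). Lnx1, an ubiquitin ligase gene, fell at day 2, 7 and 14 (-1.48, -1.53 and -1.61, adjusted p = 0.00543, 0.00427 and 0.00651), and so did Wnk4, a kinase of distal salt transport (-0.91, -1.14 and -1.05, adjusted p = 0.00476, 0.00112 and 0.00405). Grhl2, a Grainyhead-like factor of epithelial junction genes, fell at day 7 (-1.15, adjusted p = 0.0315). In unbound RNA 3 rose and 5 fell at day 2, 33.3% of the list against 14.8% of all genes, with Lnx1 (-1.41, adjusted p = 0.00948) among those that fell, and none was called at day 7 or 14. In bound RNA the list had medians of 0.25, -0.02 and 0.10 over the 3 days.

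Among the other 27 claudin rows 8 passed the filter and 19 did not, 9 of them at 0 in every library. Cldn14, a claudin that blocks cation passage in the thick ascending limb, was low, at 1.17, 0.477 and 1.13 RPKM in day 2 bound and 1.56, 0.776 and 0.683 in day 2 unbound libraries, against 0 to 0.0657 RPKM in the sham libraries. It passed the filter only through 3 day 2 libraries, where it is high, so its levels are given with no test. Cldn5, a claudin known from endothelium, fell at day 7 in bound RNA (-1.32, adjusted p = 0.047), with 5.10, 4.11 and 2.88 RPKM against 6.72, 6.61 and 25.8 RPKM in sham. The highest of these is sham bound replicate 3, and no value without that library is given for Cldn5. Cldn6, Cldn12, Cldn15, Cldn22 and the thick ascending limb claudins Cldn16 and Cldn19 were not called against sham in either fraction, and Cldn19 was lower in bound than in unbound RNA at day 7 (-1.25, adjusted p = 0.0233).

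The members fell into patterns across the 24 libraries, described here by Pearson r of log2 (RPKM + 0.5) with no test, since libraries share depth, fraction and time. Cldn4 and Cldn7 were most alike (r = 0.86), followed by the pore pair Cldn2 and Cldn10 (0.78) and by Cldn3 with Cldn1 and with Cldn7 (0.72 each). Cldn4 ran against Cldn10 (-0.74). Over all tested genes, the closest to Cldn1 included Hnrnpa1 (0.926), Cd44 (0.923), Glipr2 and Srsf6, and the closest to Cldn4 included Plaur (0.907), Ccnf, Pole and Tsc22d1. Cldn3 was nearest to Lypla2 (0.916), Lsr (0.901), Snrpb, Tspo and Cfl1, where Lsr encodes a protein of tricellular junctions, and Cldn7 to S100a16 (0.918), Serinc2, Flot2, Mfsd6 and Bzw2. For the pore claudins they were Sfxn1 (0.898), Tmem106a, Gjb2, Glod5 and Gpx3 with Cldn2, and Rida (0.929), Cyp2j5, Cyp2j13, Asb9 and Erich4 with Cldn10. Cldn8 was nearest to Tmem50b (0.886), Efhd1, Sgpp2, Hoxd10 and Ssbp2.

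The genes lie on 5 chromosomes, and their positions are those of GENCODE M21 on GRCm38; the sources used here do not give the build of the deposited values. Cldn3 spans chr5:134986214-134987472 on the plus strand and Cldn4 chr5:134945119-134946934 on the minus strand of the same chromosome. Cldn1 spans chr16:26356642-26371841 and Cldn8 chr16:88560828-88563183, both on the minus strand. On the plus strand, Cldn2 spans chrX:139800828-139811386, Cldn7 chr11:69964779-69967885 and Cldn10 chr14:118787908-118875489. Cldn3 shares 40 of its 1259 exonic bases with the antisense gene Wbscr25, which was at 0.29 RPKM or less in every library.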

How the data were processed

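Bound and unbound kidney RNA of 12 mice was sequenced in 24 libraries. Per the submitters' processing notes, reads were processed with STAR 2.0.4b, featureCounts 1.4.5 of Subread and edgeR. The authors deposited RPKM for each library in 1 table. Of its 41831 lines, 1081 repeat a gene identifier with identical values and were dropped. None of the sources used here names the build. Depth was inferred from the spacing of low values with exon lengths of GENCODE M21: of values of at most 50 reads, 73.8% to 78.2% were whole within 0.02 reads, where chance gives 4%. The lengths of Cldn1 and Cldn4 did not give whole reads, so their read numbers are approximate.

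RPKM are not counts, so limma 3.58.1 in R 4.3.3 was fitted to log2 (RPKM + 0.5) with 8 group means and variances following abundance. A gene was tested where 3 or more libraries reached 1 RPKM, which left 13721, all 7 claudins among them. There were 15 comparisons, each adjusted by the Benjamini-Hochberg method over all tested genes. Replicates are separate mice. The labels do not say that bound and unbound libraries of the same number come from 1 mouse. This was inferred, since the 12 pairs of the same number deviated together (r of 0.27 to 0.67, highest with the own number in 12 of 12). Fits with the mouse as a block rest on that pairing and stand beside comparisons of fractions. Levels are means ± SD of 3 libraries. Named genes are the 7 claudins, the other tested claudins, up to 4 called genes per list and comparison by smallest p, and the 5 genes with the highest r to each claudin; a few genes that these rules name are not reported here. The members, lists and rules were chosen with earlier results of these data known. Promoters are RefSeq sequences of GRCm38.p6. Alternatives were other pseudocounts (0.1 and 1), no filter or at least 5 RPKM, median-ratio rescaling, groups compared only, a replicate block, and each library or the third day 14 mouse left out. Leaving out a mouse in the blocked fit was added after seeing the data. The fit was tested on simulated data.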

Additional observations from a re-analysis of the deposited data

Results flagged for a closer look

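In the fit with the mouse as a block, the change after injury differed between bound and unbound RNA for 7 claudin and day pairs, by limma's test of the interaction, where 5.26% of all genes were called at day 7 and 6.28% at day 14. The values are the log2 change in bound RNA minus that in unbound RNA.

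At day 7 the difference was 1.71 for Cldn1 (adjusted p = 0.0189), 1.09 for Cldn2 (adjusted p = 0.0284), 1.06 for Cldn10 (adjusted p = 0.0392) and -1.88 for Cldn8 (adjusted p = 0.0353). At day 14 it was 1.01 for Cldn1 (adjusted p = 0.0428), 1.05 for Cldn2 (adjusted p = 0.0266) and 1.23 for Cldn10 (adjusted p = 0.0233). In the same fit, bound minus unbound RNA for Cldn1, Cldn2 and Cldn10 was -1.33, -1.41 and -1.34 in sham, all called. It was 0.38, -0.32 and -0.28 at day 7 and -0.32, -0.37 and -0.11 at day 14, none called. For these genes the interaction is thus a gap in sham that was smaller after injury. For Cldn8 it was 0.28 in sham and -1.60 at day 7. Beside Cldn2 and Cldn10, the median interaction of the 10 proximal tubule markers in the same fit was 0.40 at day 7 and 0.57 at day 14, with 0 and 3 of them called, all 3 higher. Beside Cldn8, that of 9 tested principal cell markers was -1.87 at day 7, with 3 called, all lower. Thick ascending limb, distal convoluted tubule and intercalated cell markers had medians of -1.04, -1.15 and -0.69 at day 7. Beside Cldn1, the median of the 6 genes listed as parietal markers was opposite in sign, at -0.69 at day 7 and -0.49 at day 14. So was that of 9 injured tubule markers, at -0.75 and -0.58. The median of all tested genes was -0.09 and -0.12. The part of these markers in the claudin values was not tested. Without the block none of the 7 values passed, with adjusted p between 0.119 and 0.412, and every one lost its call in the blocked fit without at least 1 mouse.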

How the results depend on the processing

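Over 1743 recomputed claudin values, 1638 kept their direction where called and their side of the threshold, 71 lost a call and 34 gained one, and no called value changed sign. The cause of the changes was not tested. With only the groups compared in the fit, which leaves fewer libraries to estimate the spread, 1 claudin was called at day 2 in bound RNA (3 otherwise), 0 at day 14 in bound RNA (1), 3 at day 7 in unbound RNA (0), 0 at day 14 against day 2 in bound RNA (2), 2 between fractions at day 7 (0) and 2 in the day 7 interaction (0). With at least 5 RPKM, or without the third day 14 mouse, 2 were called at day 14 in bound RNA (1), and without that mouse 2 in the day 14 interaction (0). Without a filter 2 were called at day 2 in unbound RNA (4), and after median-ratio rescaling 1 at day 14 against day 2 in bound RNA (2). Leaving out 1 library gave 2 to 4 claudins at day 2, 3 to 4 at day 7 and 1 to 2 at day 14 in bound RNA, 0 to 4 at day 2, 0 at day 7 and 0 to 1 at day 14 in unbound RNA, 0 to 3 at day 14 against day 2 in bound RNA, 2 to 3 between fractions in sham and 0 to 2 in the day 14 interaction.

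The replicate block called 2 claudins between fractions at day 2, 1 at day 7, 4 in the day 7 interaction and 3 in the day 14 interaction, each against 0 without it. Between times the numbers pair no mice (24 pairs, r of -0.37 to 0.34, over 0.1 in all pairs of 0 comparisons), and the block called 2 claudins at day 14 in bound RNA (1 without it, Cldn10 added at adjusted p = 0.0209). It changed no other claudin call against sham.

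Counts of all genes moved more. With only the groups compared they were 463 against 2718 at day 2 and 21 against 1824 at day 14 in bound RNA, 3254 against 2030, 2042 against 150 and 3 against 169 at day 2, 7 and 14 in unbound RNA, 79 against 911 at day 14 against day 2 in bound RNA, 0 against 230, 2133 against 323 and 39 against 112 between fractions at day 2, 7 and 14, and 913 against 20 and 1 against 27 in the day 7 and 14 interactions. With the block they were 276 and 330 at day 7 and 14 in unbound RNA, 1304, 1563 and 359 between fractions at day 2, 7 and 14, and 722 and 862 in the day 7 and 14 interactions. Without a filter they were 53 and 58 at day 7 and 14 in unbound RNA, 145 between fractions at day 2, and 1, 13 and 5 in the interactions. Without the third day 14 mouse they were 2862 in bound and 82 in unbound RNA at day 14, 2365 at day 14 against day 2 in bound RNA and 703 in the day 14 interaction. Rescaling gave 13 and 9 in the day 7 and 14 interactions, a pseudocount of 0.1 gave 13 in the day 7 interaction, and a pseudocount of 1 gave 108 at day 14 in unbound RNA. Leaving out 1 library gave 1336 to 4061, 1910 to 3808 and 791 to 2654 genes at day 2, 7 and 14 in bound RNA, 856 to 2001, 18 to 57 and 9 to 380 in unbound RNA, 490 to 2074 in bound and 346 to 681 in unbound RNA at day 14 against day 2, 57 to 1191, 83 to 200 and 51 to 339 between fractions at day 2, 7 and 14, and 0 to 111, 3 to 195 and 2 to 1810 in the interactions. The highest count at day 14 in bound RNA and in the day 14 interaction came without day 14 bound replicate 3. Calls against sham were higher in 67.3%, 66.8% and 65.5% of cases in bound RNA and 66%, 83.3% and 79.9% in unbound RNA, and after rescaling in 46.9%, 47.1% and 41.3%, and in 49.9%, 74.9% and 66.1%.

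With 3 mice a group the median SE of a log2 fold over all genes was 0.30, and the SE of Cldn4, at 0.58, was the largest of the 7. A change that did not pass is not shown to be absent. Depth limits Cldn4 most, with about 42 reads in its lowest library.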

Other observations

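Cldn5 was higher in bound than in unbound RNA of sham kidneys (log2 difference 1.93, adjusted p = 0.00478 by limma), with 6.72, 6.61 and 25.8 RPKM in bound and 2.12, 2.52 and 2.60 RPKM in unbound libraries. Beside it, the summed RPKM of 6 endothelial markers was 32.4, 44.4 and 47.0 in sham bound and 34.8, 41.8 and 31.1 in sham unbound libraries. The claudin thus differed between the fractions while the sums of these markers overlapped. Of the 6 genes listed as parietal markers 3 were also higher in sham bound RNA and none was lower, where 27.6% of all genes were called. Among the 3 was Wt1 (2.31, adjusted p = 0.00174 by limma), which is not particular to parietal cells. The highest Cldn5 value, 25.8 RPKM, lay in sham bound replicate 3, and no difference without that library is given. The part of other cell types in the Cldn5 values was not tested.

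Cldn16 was at 4.46, 5.69 and 15.7 RPKM in sham bound libraries and at 13.1, 15.2 and 10.8 RPKM in day 2 bound libraries, and its highest sham value lay again in sham bound replicate 3.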
